A study of Mus musculus with 24 samples.

Results

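Efferocytosis is the clearance of dying cells by phagocytes. A dying cell exposes phosphatidylserine, bridging proteins bind that lipid, and receptors on macrophages or neighbouring epithelial cells bind the bridge and pull the corpse in. Mfge8, the bridging protein of milk fat globules, binds phosphatidylserine and, through an RGD motif, integrins that contain the alpha v chain, which Itgav encodes. Axl and Mertk encode receptor tyrosine kinases that bind the bridging protein Gas6, and Cd36 encodes a scavenger receptor for oxidised lipids and thrombospondin. In the mammary gland this machinery is best known from involution, when the milk-producing epithelium dies and is removed.

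Of the 5 genes listed for this group (Mfge8, Itgav, Mertk, Axl and Cd36), 4 have a row with values among the 750 genes measured. Mertk has no row in the table used here and was not analysed here, so the group described is Mfge8, Itgav, Axl and Cd36. The rule lists the genes by name and uses no measured value, although the list was drawn up with earlier results of these data known. NanoString barcodes, which count labelled probes directly and without amplification, were read on total RNA from 24 mouse samples. All came from mammary tumours transplanted into BALB/c mice (the labels' mTDT). By immune infiltrate, 13 samples are labelled inflamed, 4 excluded and 7 desert, and since the labels leave out how a class was given, it cannot be told whether these same values were used. Each sample code starts with a letter for the tumour of origin (A on 5 samples, C on 6, F on 2, G on 4, H on 4, L on 3) and carries either F2 (19 samples) or 0 (5 samples), which the labels do not explain. Age, sex, genotype and passage of the tumours or hosts are not given in the labels used here.

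Depth set which samples could be compared. The total count per library ran from 5262 to 1110314. The tests use the 16 libraries that reached 100000 counts, named deep here (8 inflamed, 3 excluded and 5 desert; 11 of F2 and 5 of 0), and the 8 shallow ones, all of F2, had at most 46603 counts. A detection limit per library was set at the mean plus 2 SD of the 75 genes with the lowest counts. The 4 genes exceeded it in 16 of 16 deep libraries, the narrowest margin being 0.83 log2 units for Cd36. In the 8 shallow libraries Mfge8 exceeded it in 4, Itgav in 4, Axl in 5 and Cd36 in 3, on recovered counts of 5 to 188. Values below are deposited log2 values, in which 1 unit is a doubling. Probes differ in efficiency, so the level of 1 gene is not set against that of another. Inflamed replicates 3 and 4 share a code number, as do excluded replicates 2 and 3, so they may not be separate tumours. The counts of each of these pairs differed beyond counting noise (chi-square per degree of freedom 2.2 and 8.12). Desert replicates 3 and 4, both shallow, did not (0.991, p = 0.544) and are counted as 1 sample where an averaged fit is named. Desert replicate 6, a deep library, carries the same code number and differed from both (chi-square per degree of freedom 20.04 and 19.46). Nothing in the labels shows which samples are independent tumours, so a p-value speaks only of sample-to-sample spread, which may be technical. The tissue label was checked on markers: of the 10 macrophage markers 9 are measured, and none of them stayed below the limit throughout a class. The epithelial adhesion gene Epcam and 4 other epithelial markers gave summed levels of 4.37 to 11.05 log2 units, and desert libraries had Cdh1 and Lamb3 below the limit throughout. No marker of the adipocyte list was measured.

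Mfge8 ranged over 6.07 to 9.52 in the deep libraries, Itgav over 7.49 to 9.33, Axl over 6.85 to 10.28 and Cd36 over 4.39 to 6.52. The span from lowest to highest library was therefore 10.9-fold for Mfge8, 3.59-fold for Itgav, 10.8-fold for Axl and 4.36-fold for Cd36. Across the 568 genes that exceeded the limit in at least 8 deep libraries (called expressed here), 19.2% had a smaller SD than Itgav and 64.1% a smaller SD than Axl. Cd36 had the thinnest counts, with 25 in inflamed replicate 8. The exact 95% Poisson interval of that count, 16.2 to 36.9, spans 3.92 to 5.10 on the log2 scale and covers counting error only.

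The members did not move as 1 block. Mfge8 and Itgav, the bridge and the integrin chain it binds, ordered the 16 deep libraries alike, with a Spearman rho of 0.86. The rho was 0.79 over 14 libraries without inflamed replicates 3 and 4, and 0.83 after each library was recentred on its median expressed gene. Axl followed Mfge8 with a rho of 0.72, which was 0.40 after recentring, and followed Itgav with 0.58, which was 0.20 after recentring. Cd36 had a rho of -0.27 with Mfge8, -0.11 with Itgav and -0.15 with Axl. These are descriptions over libraries that share letters, classes and code series, and no p is attached to them. The part of the code series in them was not tested.

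Because Mfge8 and Itgav varied together, their promoter windows are shown here as RefSeq gives them (GRCm38.p6, 300 bases around the annotated start, 5′ to 3′ on the gene's own strand). Capitals mark the GC box GGGCGG or its reverse complement CCGCCC, a motif bound by Sp-family factors. The Mfge8 window is chr7:79149011-79149310 on the minus strand and the Itgav window chr2:83724147-83724446 on the plus strand.
Mfge8: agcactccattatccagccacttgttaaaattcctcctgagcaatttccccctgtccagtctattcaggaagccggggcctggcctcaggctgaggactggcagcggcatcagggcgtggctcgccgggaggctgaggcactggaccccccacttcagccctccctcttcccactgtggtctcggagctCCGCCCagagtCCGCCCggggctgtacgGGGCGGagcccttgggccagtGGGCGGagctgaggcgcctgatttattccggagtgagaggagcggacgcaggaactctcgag
Itgav: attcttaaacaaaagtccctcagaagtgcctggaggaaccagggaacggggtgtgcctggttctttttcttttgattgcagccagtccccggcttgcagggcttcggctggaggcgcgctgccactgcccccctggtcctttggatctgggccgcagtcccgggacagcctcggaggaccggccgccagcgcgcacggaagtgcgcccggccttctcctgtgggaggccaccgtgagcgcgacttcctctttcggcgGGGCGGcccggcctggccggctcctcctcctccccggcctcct
The Mfge8 window holds 4 GC boxes and the Itgav window 1. The windows of Axl and Cd36 hold 2 each. Of all 32851 windows of this length in the table, 35.7% hold at least 1. A match is a description of the letters and not a binding site.

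Of the comparisons between 2 groups, F2 against 0 gave the smallest p-values of Itgav, Mfge8 and Axl, while that of Cd36 came in inflamed against desert. Itgav had a lowest value of 7.49, a median of 8.40 and a highest value of 8.74 in the 11 deep F2 libraries, against 8.83, 8.91, 9.17, 9.18 and 9.33 in the 5 libraries coded 0. Every F2 library lay below every 0 library. Itgav was the only 1 of 750 genes with that pattern (0.133%, or 0.176% of expressed genes), while 4 genes (0.533%) were higher in every F2 library. The fitted F2 minus 0 difference of Itgav was -0.90 log2 units (SE 0.27, 95% interval -1.46 to -0.33), a 0.537-fold level. It did not pass limma's test over all genes (adjusted p = 0.0666).

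Mfge8 was also lower on average in F2, but the 2 series overlapped. Its F2 values had a lowest of 6.07, a median of 7.02 and a highest of 7.48, against 7.18, 7.81, 7.82, 8.06 and 9.52 in libraries coded 0. Of the 0 libraries, 4 of 5 lay above every F2 library, and the exception was desert replicate 2 of letter G. Of the F2 libraries, 8 of 11 lay below every 0 library. How many of all genes showed such a partial overlap was not counted. The fitted difference was -1.14 (SE 0.34, 95% interval -1.87 to -0.42), a 0.452-fold level, and did not pass (limma adjusted p = 0.0666). Axl averaged 8.74 ± 1.02 in F2 libraries (SD, n = 11) and 9.56 ± 0.70 in 0 libraries (n = 5), a difference of -0.82 (SE 0.49, limma adjusted p = 0.393). Cd36 averaged 5.61 ± 0.47 in F2 and 5.54 ± 0.94 in 0 libraries, a difference of 0.07 with a 95% interval of -0.70 to 0.83. Of the 4 members, 0 passed in this comparison, where limma called 31 of 750 genes (4.13%), 5 of them lower in F2 (0.667%) and 26 higher (3.47%).

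**Figure D1:**
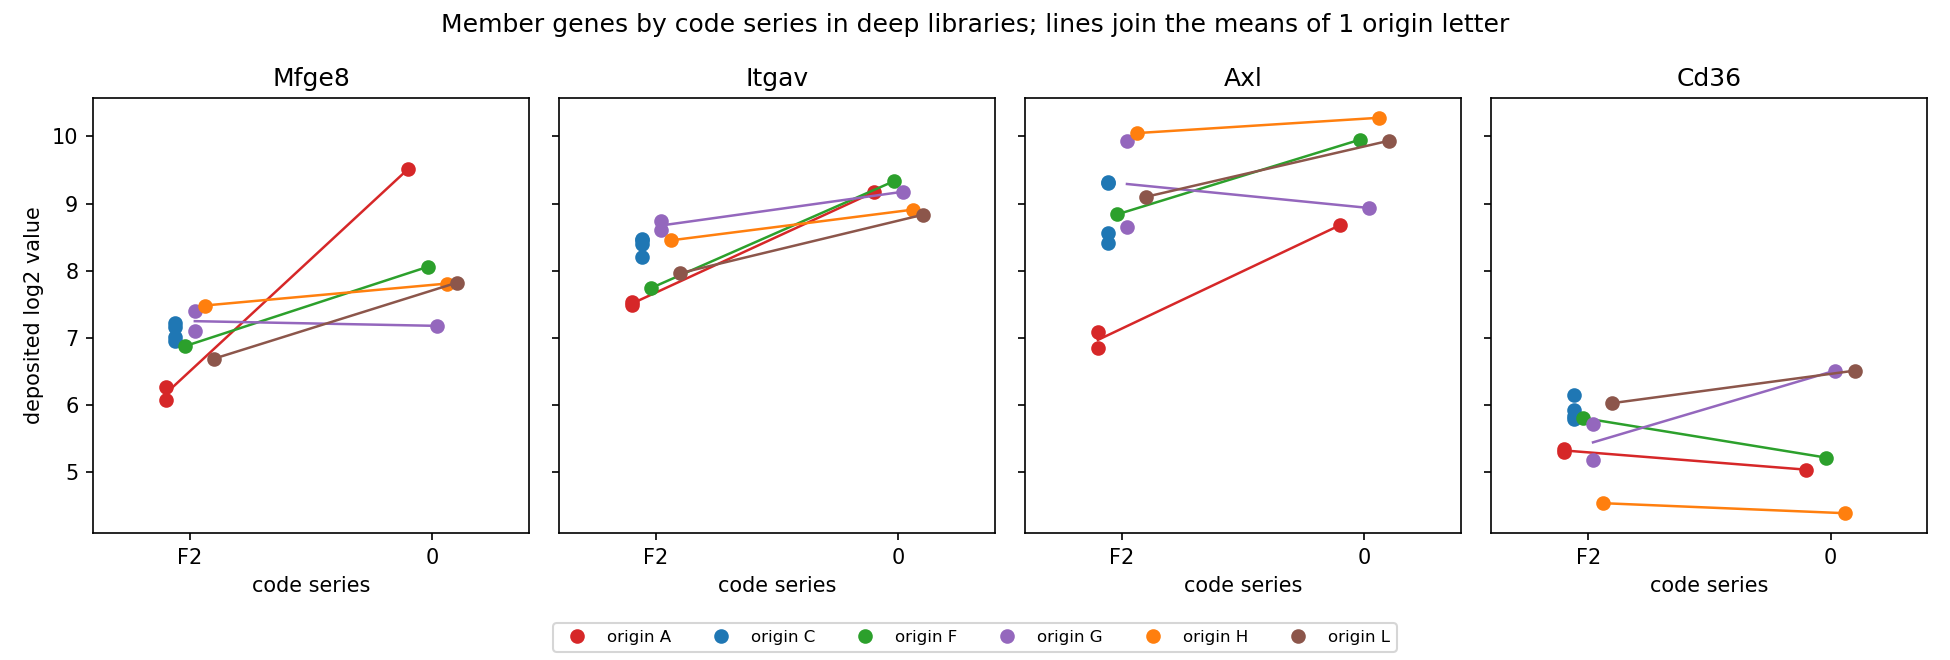
Deposited log2 values of the 4 genes in the 16 deep libraries, F2 codes on the left and 0 codes on the right, coloured by origin letter, with lines joining the means of a letter that holds both series. All 11 F2 points of Itgav (7.49 to 8.74) sit below its 5 points of series 0 (8.83 to 9.33), while the lines of Cd36 run both ways.

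Letters A, F, G, H and L hold deep libraries of both series, so the difference can be read within an origin. In A and G the library coded 0 is of another infiltrate class than the F2 libraries, so series and class cannot be told apart there. In F, H and L both series are of 1 class. Itgav was lower in F2 in 5 of 5 letters: by -1.66 in A, -1.59 in F, -0.50 in G, -0.46 in H and -0.87 in L. Over all genes, 5.07% were lower in F2 in all 5 letters and 14.3% were higher, and of expressed genes 6.51% were lower. The mean difference over letters was -1.02 ± 0.58 (SD, n = 5 letters), with an exact sign-flip permutation p of 0.0625, 2-sided, the smallest that 5 letters allow. Mfge8 was lower in 4 of 5 letters, by -3.34 in A, -1.18 in F, -0.33 in H and -1.13 in L, and stood 0.07 higher in G (mean -1.18, exact sign-flip permutation p = 0.125). Axl was lower in 4 of 5 letters (mean -0.70, exact p = 0.188) and Cd36 in 2 of 5 (mean -0.11, exact p = 0.75). The share of all genes lower in 4 of 5 letters was not counted. With the origin letter as a fixed block, limma called 95 of 750 genes, among them Itgav (-1.02, adjusted p = 0.0232) and not Mfge8 (-1.23, adjusted p = 0.071). Itgav did not pass in the 5 letters alone without a block (-1.01, adjusted p = 0.0661), nor with recentring and the letter block together (-0.71, adjusted p = 0.0635). With the shallow libraries included, limma called 36 of 750 genes, among them Itgav (-1.32) and Mfge8 (-1.12, adjusted p = 0.0432 each). Each of these 2 genes exceeded the limit in only 4 of the 8 shallow libraries. With deep libraries of 1 code number averaged, neither gene passed (Itgav -0.85, Mfge8 -1.09, limma adjusted p = 0.104 and 0.105). Quantile normalisation gave -0.70 for Itgav and -0.97 for Mfge8 (limma adjusted p = 0.327 each).

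Depth and scale moved with the code series. The 11 deep F2 libraries had 107677 to 976271 counts, the 5 libraries of 0 had 982205 to 1110314 counts, and the F2 minus 0 differences of expressed genes had a median of -0.25 log2 units. Library medians over expressed genes averaged 5.96 in F2 and 6.28 in 0 libraries, so recentring each library on its median added 0.32 to every difference. After recentring, Itgav differed by -0.58 (adjusted p = 0.159) and Mfge8 by -0.83 (adjusted p = 0.0952). The difference of Mfge8 leaned on excluded replicate 1, a library of A coded 0 with 9.52. Without that library Mfge8 differed by -0.78 and Itgav by -0.87 (limma adjusted p = 0.206 and 0.128). Without the 3 deep libraries of A, a choice made after the data were seen, Itgav differed by -0.72 and Mfge8 by -0.62 (limma adjusted p = 0.157 and 0.198). Of the 26 genes called higher in F2, 25 are not expressed by the rule above, so they lie near limits that reached 4.32 in F2 libraries and 2.40 in 0 libraries.

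Other genes and cell markers also differed between the series, in both directions. Itgb8, an integrin beta chain that pairs with alpha v and activates latent TGF-beta, was singled out after its values were seen. It averaged 3.89 ± 0.82 in F2 and 5.65 ± 1.18 in 0 libraries and was called lower (-1.76, SE 0.49, limma adjusted p = 0.04998). Itgb3, the beta chain of a classical Mfge8 receptor, was singled out for its role and averaged 5.39 ± 0.48 in F2 and 5.86 ± 1.14 in 0 libraries (adjusted p = 0.572). Of the measured endothelium markers 4 of 4, and of the macrophage markers 9 of 9, had negative F2 minus 0 differences, with 0 passing. The summed endothelium level ran from 7.86 to 9.93 in F2 and from 8.88 to 10.46 in 0 libraries. The summed macrophage level ran from 9.83 to 14.02 in F2 and from 11.81 to 13.98 in 0 libraries. Of 9 measured fibroblast and mesenchyme markers 7 were lower in F2, and 1, Thy1, passed. Of 6 neutrophil markers 5 were lower. By contrast, 8 of 8 T cell, 4 of 4 B cell, 2 of 2 dendritic cell, 1 of 1 platelet and 3 of 5 epithelium markers were higher in F2. None of these passed, and of the T cell markers 3 and of the B cell markers 0 are expressed by the rule above. The median difference of all expressed genes was -0.25. The part of these cells in the Itgav and Mfge8 differences was not tested, and in bulk tumour RNA fewer cells of a type and less RNA per cell cannot be told apart.

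**Figure D2:**
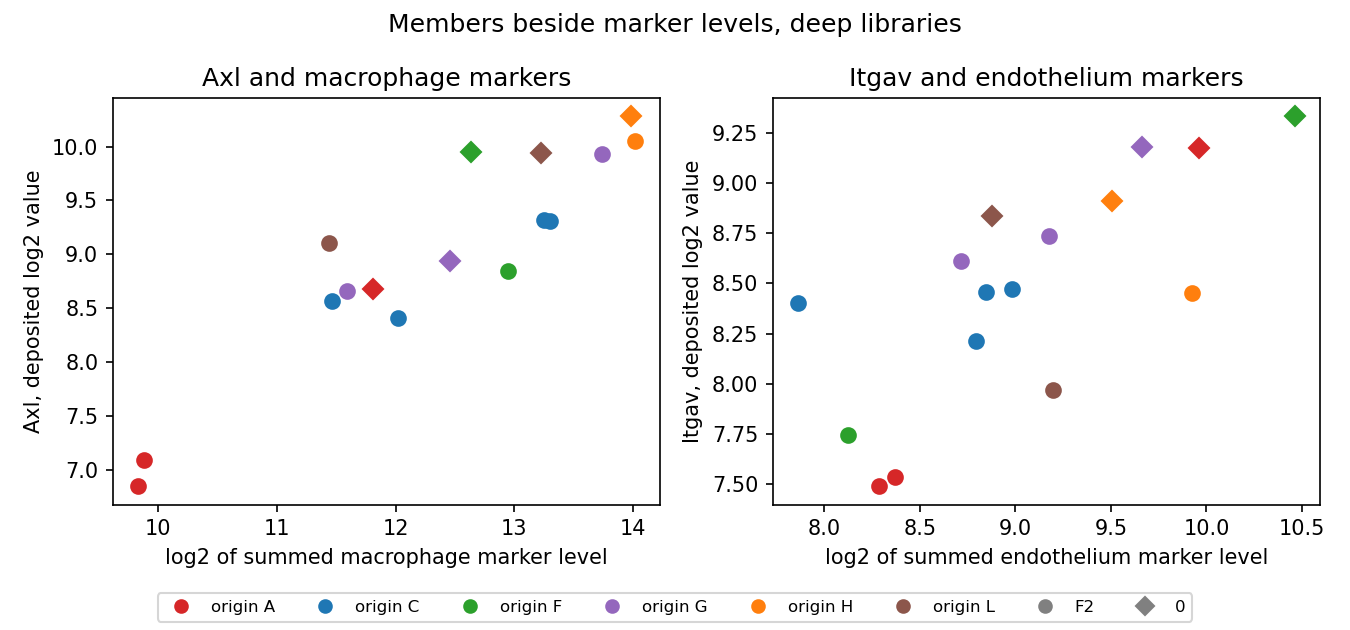
Left, Axl against the log2 of the summed macrophage marker level; right, Itgav against the log2 of the summed endothelium marker level, 1 point per deep library, coloured by origin letter, circles for F2 and diamonds for 0. The 2 libraries of A with the lowest macrophage sums (9.83 and 9.88) also have the lowest Axl values (6.85 and 7.10).

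Across tumour origins Axl and Cd36 had the smallest p-values of the members, and no member passed. Axl was highest in the deep libraries of H (10.05 and 10.28) and lowest in the inflamed libraries of A (6.85 and 7.10), with the excluded library of A at 8.68. The 3 deep libraries of A were also the ones with high epithelial markers, summing to 10.34, 10.47 and 11.05, against at most 6.42 in every other deep library, and the part of this in the Axl values was not tested. Letter means of Axl ran in the order H 10.16, L 9.52, F 9.40, G 9.17, C 8.90 and A 7.54. Among neighbours in that order, only H and L did not overlap. Cd36, by contrast, was lowest in the deep libraries of H. Its 2 values there (4.39 and 4.54) lay below every other deep library, followed by A (5.04, 5.30 and 5.35). L (6.03 and 6.52) had the highest mean, 6.27. Neighbours from L through C, G, F and A overlapped. The letters were compared with limma's moderated F test, in which 3 of 750 genes passed (0.4%) and 0 of the 4 members did. Unadjusted p was 0.0159 for Axl and 0.0282 for Cd36 (adjusted p = 0.217 and 0.233). With all 24 libraries the adjusted p of this test was 0.807 for Axl and 0.976 for Cd36. A shallow library of H, inflamed replicate 9, held the highest Cd36 value of all 24 libraries, 8.58 on 31 counts. Its Axl value was 7.43 on 14 counts, and both exceeded its limit.

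**Figure D3:**
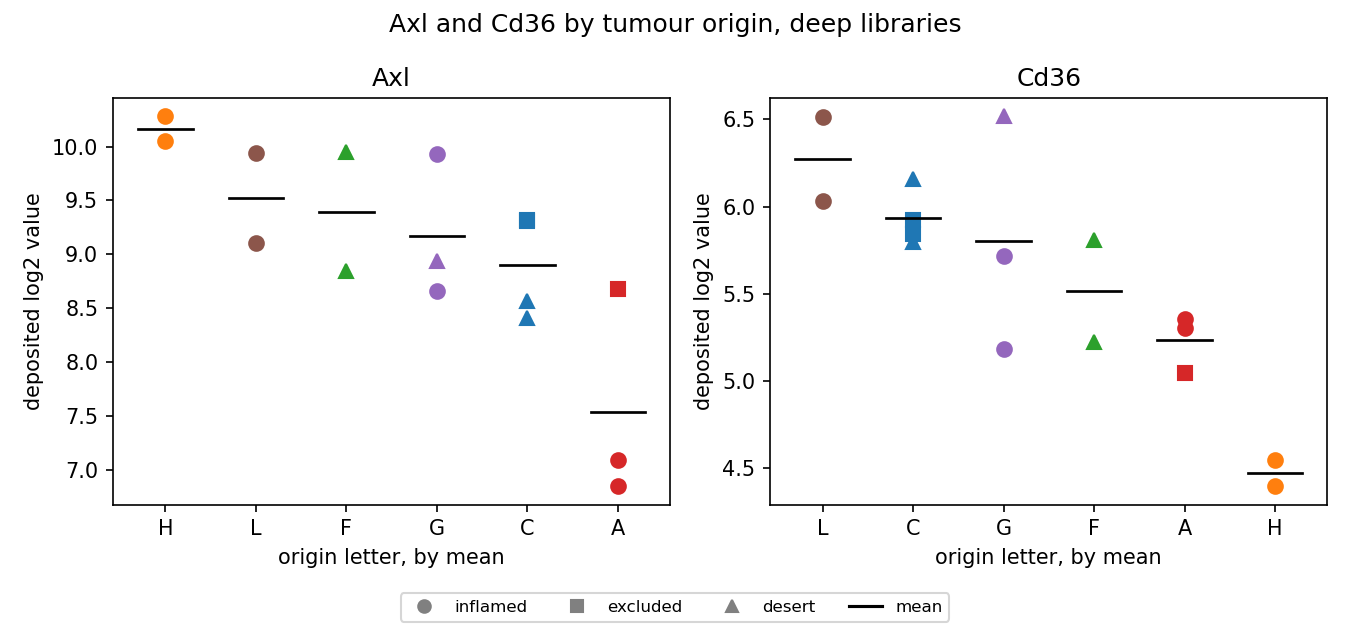
Deposited log2 values of Axl and Cd36 in deep libraries, by origin letter in the order of the means (black lines), with the infiltrate class as the symbol. H holds the highest Axl values (10.05 and 10.28) and the lowest Cd36 values (4.39 and 4.54).

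Differences between 2 members within a library do not depend on how libraries were scaled, though their zero point has no meaning. Axl minus Cd36 was 5.51 and 5.89 in the deep libraries of H, and 4.73, in F, was the highest value in the other deep libraries. Axl minus Itgav was -0.64 to -0.44 in the 3 libraries of A, from both infiltrate classes and both code series, and at least -0.24 in every other deep library. The highest values were 1.60 and 1.37 in H, 1.32 in 1 library of G, 1.14 and 1.10 in L and 1.10 in 1 library of F, so the upper end was shared by 4 letters. These pairs were picked after their values were seen and carry no test. Axl passed the letter test with the infiltrate class as a fixed block (adjusted p = 0.0359, with 68 genes called) and without excluded replicate 1 (adjusted p = 0.0187, with 149 called). Without inflamed replicates 3 and 4 its adjusted p was 0.901.

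Mfge8 and Itgav showed no order by origin that outran the spread within letters. The letter means of Mfge8 ran from 7.09 ± 0.12 in C (SD, n = 4) to 7.65 ± 0.23 in H (n = 2), and every neighbour in the order overlapped. In A it covered 6.07, 6.27 and 9.52, and so both ends of its range over the deep libraries. Itgav letter means ran from 8.07 ± 0.96 in A (n = 3) to 8.84 ± 0.30 in G (n = 3), also with every neighbour overlapping. Their adjusted p in the letter test was 0.995 for Mfge8 and 0.941 for Itgav.

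The genes most like Axl over the 16 deep libraries, among expressed genes, were Itga4, an integrin chain of leukocytes (Spearman rho 0.96), the TGF-beta receptor gene Tgfbr2 (0.93) and Vsir, which encodes the checkpoint protein VISTA (0.93). Without inflamed replicates 3 and 4 these were 0.94, 0.90 and 0.90. Axl also followed the summed macrophage level with a rho of 0.84, or 0.77 without that pair. Against the summed neutrophil level its rho was -0.20, or -0.80 without that pair. Mfge8 was most like Wnt2b, a secreted Wnt ligand (0.90), the prostaglandin receptor gene Ptger4 (0.87) and Itgav (0.86). Itgav was most like the adaptor gene Shc2 (0.87), Mfge8 (0.86) and the endothelial adhesion gene Pecam1 (0.82). After recentring, the rho with Mfge8 was 0.56 for Wnt2b and 0.65 for Ptger4, and the rho with Itgav was 0.55 for Shc2 and 0.56 for Pecam1. Cd36 had looser neighbours, the neutrophil-attracting chemokine gene Cxcl5 (0.70), the translation repressor gene Eif4ebp1 (0.64) and Rrm2, a subunit of ribonucleotide reductase (0.61), which were 0.45, 0.56 and 0.64 after recentring. Those of Axl were 0.89, 0.84 and 0.83. These values describe 16 libraries that share origins, code series and scaling. The neighbours of Mfge8 and Itgav named here were also lower in F2 than in 0 libraries. Wnt2b differed by -1.39, Ptger4 by -1.03, Shc2 by -1.16 and Pecam1 by -1.25 (limma adjusted p = 0.0330, 0.224, 0.0687 and 0.0755). The part of the code series in these rho values was not tested.

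The infiltrate classes sort tumours by the presence and place of immune cells. Across the 3 class comparisons 0 of the 4 members passed and 0 were free of overlap. Genes free of overlap made up 0.267% (lower) in inflamed against desert, 1.33% (higher) and 2.27% (lower) in inflamed against excluded, and 6.0% (higher) and 1.87% (lower) in excluded against desert libraries. Mfge8 in inflamed libraries had a lowest value of 6.07, a median of 7.25 and a highest of 7.82. The excluded libraries held 7.17, 7.22 and 9.52 and the desert libraries 6.88, 6.96, 7.02, 7.18 and 8.06. All 3 classes overlapped, and 1 excluded library stood above every other. Inflamed minus desert was -0.14 (95% interval -1.07 to 0.79), inflamed minus excluded -0.89 (-1.99 to 0.22) and excluded minus desert 0.75 (-0.44 to 1.94). Without excluded replicate 1 the last of these was -0.03. With the origin letter as a fixed block, inflamed minus desert was -1.13 (limma adjusted p = 0.515), inflamed minus excluded -2.14 (adjusted p = 0.0635) and excluded minus desert 1.01 (adjusted p = 0.391). Among deep libraries, A alone holds both inflamed and excluded ones and G alone both inflamed and desert ones. There every inflamed library is coded F2 and the other class 0, so that class and code series cannot be told apart within those letters. C alone holds both excluded and desert ones, all of F2, with Mfge8 at 7.22 and 7.17 against 7.02 and 6.96. The letter-block estimates of excluded minus desert, here and for the genes below, also draw on A and G.

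Itgav in inflamed libraries had a lowest value of 7.49, a median of 8.53 and a highest of 8.91. The excluded libraries held 8.46, 8.47 and 9.17, and the desert libraries 7.75, 8.21, 8.40, 9.18 and 9.33. The classes overlapped, and within each class the libraries coded 0 were at the top. Inflamed minus desert was -0.26 (95% interval -1.02 to 0.51), inflamed minus excluded -0.38 (-1.29 to 0.52) and excluded minus desert 0.13 (-0.85 to 1.11). With the letter block these were -0.88, -1.29 and 0.41 (limma adjusted p = 0.518, 0.128 and 0.639).

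Axl in inflamed libraries had a lowest value of 6.85, a median of 9.52 and a highest of 10.28. The excluded libraries held 8.68, 9.31 and 9.32, and the desert libraries 8.41, 8.57, 8.84, 8.94 and 9.95. The inflamed class held both the highest libraries, of H, and the lowest, of A. Its SD was 1.36 (n = 8), against 0.36 in excluded (n = 3) and 0.60 in desert libraries (n = 5). Excluded replicates 2 and 3 (9.31 and 9.32) share a code number, as do inflamed replicates 3 and 4 (6.85 and 7.10). These SDs may therefore not describe the spread of separate tumours. Inflamed minus desert was 0.05 (95% interval -1.16 to 1.25), inflamed minus excluded -0.11 (-1.55 to 1.32) and excluded minus desert 0.16 (-1.39 to 1.71). Without inflamed replicates 3 and 4, the 2 low libraries of A, inflamed minus excluded was 0.56. With the letter block, inflamed minus desert was -0.11, inflamed minus excluded -1.24 and excluded minus desert 1.13 (limma adjusted p = 0.934, 0.145 and 0.286).

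Cd36 in inflamed libraries had a lowest value of 4.39, a median of 5.33 and a highest of 6.52. The excluded libraries held 5.04, 5.84 and 5.92, and the desert libraries 5.22, 5.80, 5.81, 6.16 and 6.52. The classes overlapped, with 3 of 8 inflamed libraries below every desert library. Neutrophil markers (6 of 7 measured) also summed to lower levels in inflamed libraries, 6.44 to 10.83, than the 10.53 to 12.26 of desert libraries, and their part in the Cd36 values was not tested. Inflamed minus desert was -0.52 (SE 0.38, 95% interval -1.31 to 0.27), inflamed minus excluded -0.22 (-1.16 to 0.72) and excluded minus desert -0.30 (-1.31 to 0.72). The adjusted p of the members ran from 0.608 to 0.990 in inflamed against desert libraries, where limma called 2 of 750 genes (0.267%). It ran from 0.664 to 0.983 in inflamed against excluded and from 0.882 to 0.981 in excluded against desert libraries, where 0 genes were called (0.0% each). At an unadjusted p under 0.05 those last 2 comparisons held 64 and 46 genes. These comparisons share libraries, and their 95% intervals reach beyond 1 log2 unit in at least 1 direction for every member.

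**Figure D4:**
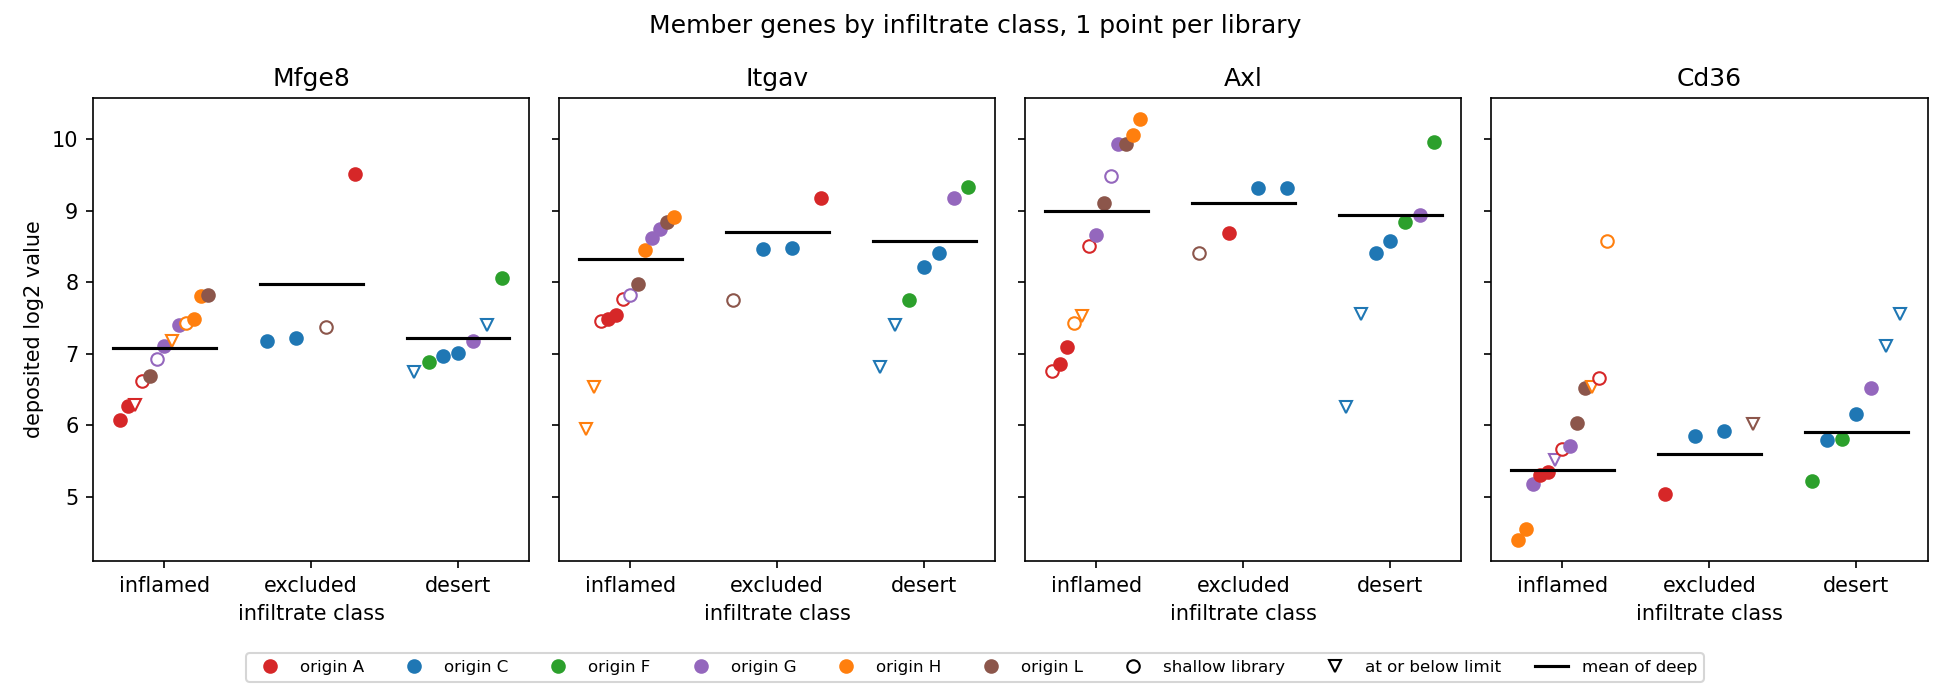
Deposited log2 values by infiltrate class, 1 point per library, coloured by origin letter; filled points are deep libraries, open points shallow ones, triangles values at or below the detection limit and lines the means of deep libraries. The single excluded library at 9.52 stands apart in Mfge8, and the inflamed class spans 6.85 to 10.28 in Axl.

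**Figure D5:**
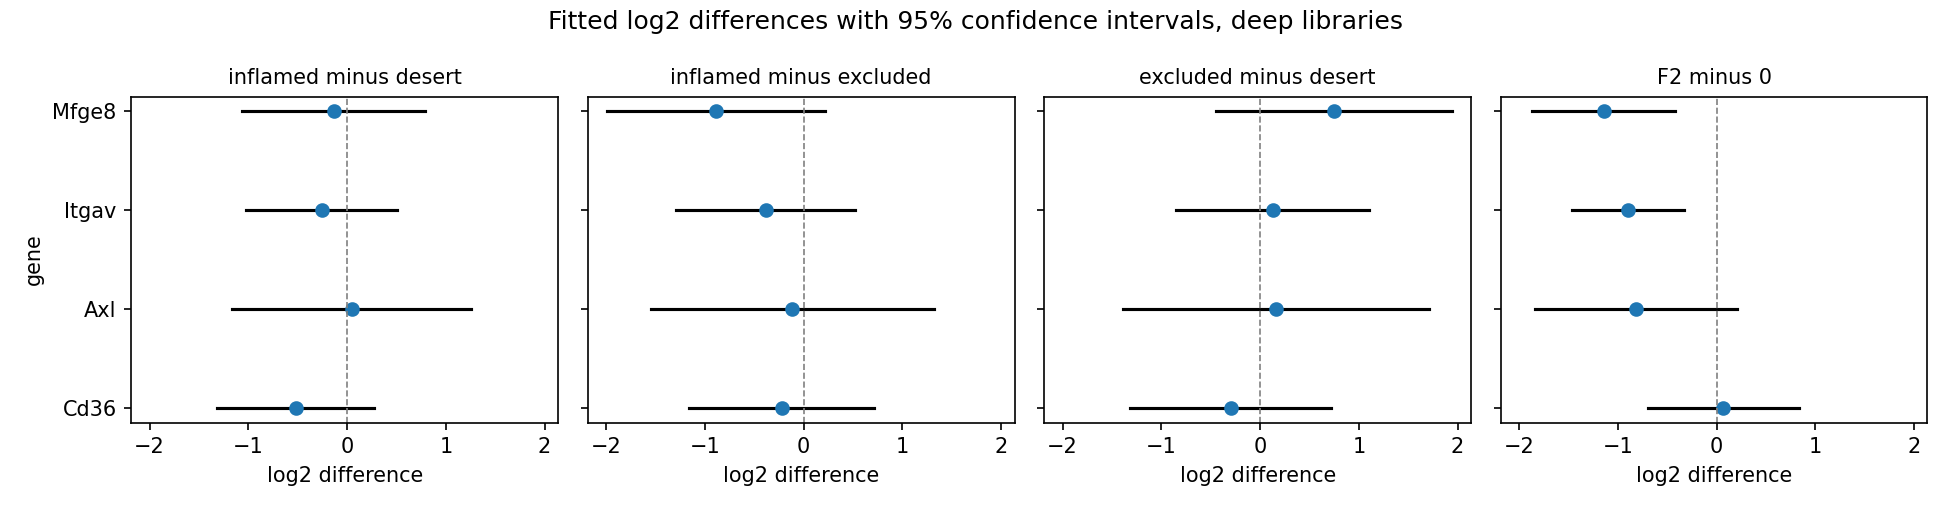
Fitted log2 differences (points) with 95% confidence intervals (lines) from limma in deep libraries, 1 panel per comparison. The 12 class intervals include 0, while those of Mfge8 (-1.87 to -0.42) and Itgav (-1.46 to -0.33) in F2 minus 0 lie below it without passing after adjustment over 750 genes.

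Genes of corpse clearance were read from lists of their roles. These lists also hold the members, Mfge8 as a bridging molecule and Itgav, Axl and Cd36 as uptake receptors. The counts and medians below are therefore not separate from the members' own differences. Of 14 find-me and bridging molecules 5 are measured, of 26 uptake receptors 12, of 22 engulfment and lipid handling genes 3, of 5 signals that block uptake 3 and of 8 products of macrophages after uptake 5. In the 4 comparisons between 2 groups, 0 of these genes passed in either direction. In F2 minus 0, all 5 find-me and bridging molecules, Mfge8 included, were lower with a median of -0.63. Of the 12 uptake receptors, Itgav, Axl and Cd36 included, 8 were lower, with a median of -0.52 over the 12. All 3 signals that block uptake were lower as well, with a median of -0.70. The median of all genes was -0.05 and that of expressed genes -0.25. In inflamed minus desert, the find-me and bridging molecules had a median of -0.04 and the uptake receptors 0.02, against 0.12 for all genes.

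Among the find-me and bridging molecules, the Cd36 ligand gene Thbs1 averaged 8.70 ± 1.17 in inflamed (SD, n = 8) and 8.06 ± 0.67 in desert libraries (n = 5). The complement gene C1qb differed by -0.16 and the membrane-bound chemokine gene Cx3cl1 by -0.04 in that comparison. Among the receptors, Olr1, a receptor of oxidised lipoprotein that is not expressed by the rule above, differed by 1.08 (adjusted p = 0.43). Cd14, a co-receptor of bacterial lipopolysaccharide, differed by -0.76 and the chemokine receptor gene Cx3cr1 by 0.79. Cd47, the signal that blocks uptake through Sirpa, averaged 7.87 ± 1.35 in inflamed and 8.94 ± 0.30 in desert libraries (-1.07, limma adjusted p = 0.525). Sirpa itself differed by 0.46 and Pecam1 by -0.16.

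Of the engulfment genes, the glucose transporter gene Slc2a1 differed by -0.74, the lysosomal gene Cd68 by -0.59 and the lipid-sensing nuclear receptor gene Pparg by 0.70, the last from levels near the detection limits. Of the products of macrophages, the growth factor gene Vegfa differed by -0.41, the cytokine suppressor gene Socs1 by -0.38, the arginase gene Arg1 by 0.54 and Il10 by -0.37, Il10 also near the limits. Adjusted p for all of these named genes was at least 0.43.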

How the data were processed

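Per the labels, total RNA extracted with Trizol was measured by NanoString barcoding, and the deposited table holds log2 values. No label or header names the authors' software, background step or scaling rule. Raised to the power of 2 and divided by 1 factor per sample, 100% of values were whole numbers within 0.001, and these recovered counts gave the depth. Of 784 rows, 34 hold no value (14 controls and 20 genes).

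Deep libraries were fitted with limma 3.58.1 in R 4.3.3 (lmFit, eBayes), 2-sided, with Benjamini-Hochberg adjustment over 750 genes and a threshold of 0.05. The 3 classes shared 1 fit, and letters and code series had 1 fit each. The fits were also run on simulated data with independent noise and planted changes larger than the members' differences in the main fits. That run did not cover shared code numbers, depth or scale, nor changes of the members' size. The members and lists were chosen with earlier results of these data known. Named genes are the members, the 3 expressed genes with the highest Spearman rho to each, and up to 4 genes per role list (ranked by p for inflamed minus desert), beside those said to be singled out. The noise check was a chi-square test of recovered counts over genes with at least 5 expected. Alternatives covered the libraries used, blocks, scaling, a pseudocount of 10, variance trend and voom weights. Sequences are RefSeq's.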

Additional observations from a re-analysis of the deposited data

Results flagged for a closer look

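Dixon's test was applied to 16 groups of deep libraries, and chance gives about 1 flag in 20 groups. It marked 1 value: Mfge8 in desert replicate 1, a library of letter F coded 0, at 8.06. The gap to the next desert library was 0.745 of the whole range of the 5 desert libraries. Mfge8 in excluded replicate 1 (9.52) stands in a class of 3 deep libraries, too few for this test. Among the 5 libraries coded 0 it was tested and not marked. The F2 minus 0 difference did not pass as different between inflamed and desert libraries for any member in limma's interaction test (adjusted p 0.957 to 0.978).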

How the results depend on the processing

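No paired analysis was possible because replicate numbers only follow sample order within a class. This concerns replicate numbers alone: F2 and 0 were also compared within origin letters. In F2 minus 0, Mfge8, Itgav and Axl kept a negative sign in every alternative run. Without 1 library at a time, Mfge8 ran from -1.37 to -0.78 (adjusted p 0.0668 to 0.206), Itgav from -0.96 to -0.83 (0.0658 to 0.163), Axl from -1.04 to -0.63 and Cd36 from -0.22 to 0.31. Cd36 was -0.14 with the letter as a block and -0.12 in letters that hold both series. The count of genes called there, 31, ran from 0 to 42 without 1 library at a time. It was 10 without inflamed replicates 3 and 4, 54 after recentring, 0 with quantile normalisation, expressed genes only or a pseudocount of 10, 95 with the letter as a block and 61 in letters with both series. Chosen after seeing the data, it was 2 without letter A and 144 with recentring and the letter block together.

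For origin letters, the 3 calls became 0 with all 24 libraries, and 1 with desert replicates 3 and 4 averaged, code units averaged, inflamed replicates 3 and 4 left out or expressed genes only. They became 5 after recentring, 10 with quantile normalisation, 68 with the class as a block, 28 with the code series as a block (chosen after seeing the data), and 1 to 149 without 1 library at a time.

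In inflamed minus desert, the 2 calls became 1 after recentring, and 0 with all 24 libraries (averaged or not), code units averaged, inflamed replicates 3 and 4 left out, the letter block or F2 codes only, with 0 to 3 without 1 library at a time. Axl was -0.017 with all 24 libraries averaged and -0.11 with the letter block, where Mfge8 was -1.13 and Itgav -0.88. Mfge8 was 0.17 and Itgav 0.012 without inflamed replicates 3 and 4, and Itgav was 0.013 in F2 codes only. Without 1 library at a time, Mfge8 ran from -0.24 to 0.073, Itgav from -0.46 to -0.07, Axl from -0.14 to 0.35 and Cd36 from -0.69 to -0.37.

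In inflamed minus excluded, 0 calls became 62 with the letter block, where Mfge8 was -2.14, Itgav -1.29 and Axl -1.24, and 0 to 1 without 1 library at a time. Cd36 was 0.14 with all 24 libraries, averaged or not, and 0.0061 after recentring. Axl was 0.28 with code units averaged, 0.56 without inflamed replicates 3 and 4 and 0.11 after recentring. Without 1 library at a time, Axl ran from -0.32 to 0.19, Mfge8 from -1.28 to -0.11, Itgav from -0.50 to -0.15 and Cd36 from -0.50 to -0.06. In excluded minus desert, recentring gave Itgav -0.047 and Axl -0.013. Without 1 library at a time, Mfge8 ran from -0.025 to 1.15, Itgav from -0.11 to 0.32, Axl from 0.03 to 0.41 and Cd36 from -0.47 to -0.02.

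The cause of these shifts was not tested. Depth limited the comparisons to 16 libraries, with 3 excluded ones and 1 library coded 0 in each of 5 letters.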
